A study of Homo sapiens with 16 samples.

Results

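The 10 genes described here make prostaglandins, sense them or break them down: PTGS1, PTGS2, PTGES, PTGIS, PTGDS, PTGER2, PTGER3, PTGER4, PTGFR and HPGD. They were taken by symbol from a table of estimated counts for 40663 gene symbols, and all 10 were found. The family was selected on levels in the 4 groups of these libraries that an earlier pass over the data had shown, which are given here as description. The 16 RNA-seq libraries, 4 in each of 4 groups, came from Ccd18-Co, an established line of human colon fibroblasts, and asked what stays changed in the cells weeks after cytokines and a chromatin inhibitor have been withdrawn. In the unstimulated group (replicates 1 to 4) the cells received the solvent DMSO and no cytokines. The vehicle (replicates 13 to 16), belinostat (17 to 20) and GSK-J4 (21 to 24) groups all received 3 cytokine pulses of 72 h in serum-free medium, each followed by a recovery of 96 h. The mix held OSM, IL-17A and TNF (each 10 ng/ml) and IL-1B (0.1 ng/ml). The pulsed cells rested for 1 week and then received DMSO, the histone deacetylase inhibitor belinostat (250 nM by the labels) or GSK-J4, an inhibitor of the enzymes that demethylate lysine 27 of histone H3 (10 µM). Compounds were applied for 5 days and RNA was collected 2 weeks later, so every value is a level after washout. The study's text gives other doses for its compound assays, so the doses here rest on the labels alone. All 4 groups are a single cell line. The labels do not say whether the replicates are separate cultures, and a legend of the study calls replicates of bulk RNA-seq in this setting biological but gives fewer per group than the libraries here, so the p-values measure only the spread between these samples, which may be technical.

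Prostaglandins are lipid signals made from arachidonic acid, which phospholipases release from membranes. The cyclooxygenases PTGS1 and PTGS2 turn it into prostaglandin H2, and terminal synthases then form prostaglandin E2 (PTGES), prostacyclin (PTGIS) or prostaglandin D2 (PTGDS). Receptors on the cell surface read the products, and HPGD, 15-hydroxyprostaglandin dehydrogenase, inactivates them. In the gut, fibroblasts are a source of prostaglandin E2, which acts on the epithelium, on immune cells and on the fibroblasts themselves.

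Libraries held 14.4 to 19.5 M estimated counts. All 8 fibroblast markers were present in every group, while the summed epithelial markers stayed at 0 to 17.65 normalized counts per library, where a normalized count is an estimated count divided by the library's size factor. The leukocyte list summed to 255.7 to 522.2 in 15 libraries and 725.6 in belinostat replicate 17. CD68 and CD14 made up nearly all of it, and PTPRC, CD3E and MS4A1 reached at most 5.12 in any library. In bulk RNA, fewer cells of a type and less RNA per cell cannot be told apart. A gene was called where DESeq2 gave a Benjamini-Hochberg adjusted p under 0.05 over all genes tested. The genes were chosen with earlier results of these data known, so no p-value printed for them is independent evidence. The fall of PTGER3 in vehicle and that of PTGER4 under GSK-J4 were among those earlier results, so PTGER3 against unstimulated cells and PTGER4 against GSK-J4 are described without a test and left out of the counts of calls. The vehicle libraries enter all 3 comparisons with vehicle.

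Belinostat replicate 17 stood apart from the other 3 libraries of its group in the prostaglandin genes, and this touches each belinostat result. Its level was 3.16 times the median of the other 3 for PTGS2, 1.95 times for PTGS1 and 1.70 times for PTGER4, but 0.393 times for PTGIS and 0.339 times for PTGER3. Of 9 expressed prostaglandin genes, 6 lay more than 0.5 from that median on the log2 scale in this library, where 8.15% of 11741 genes with a mean of at least 50 normalized counts did. PTGES, PTGER2 and PTGFR lay within 0.5. Over the same 11741 genes, 184 (1.57%) were off by more than 1 in this library, against 0.179% to 0.545% in the other 15. Its leukocyte marker sum of 725.6 was the highest and its fibroblast marker sum of 419100 the lowest of all libraries, where the others had 476300 to 560600. Their part in the result was not tested, and the belinostat differences of these genes from vehicle are given with and without this library.

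**Figure D1:**
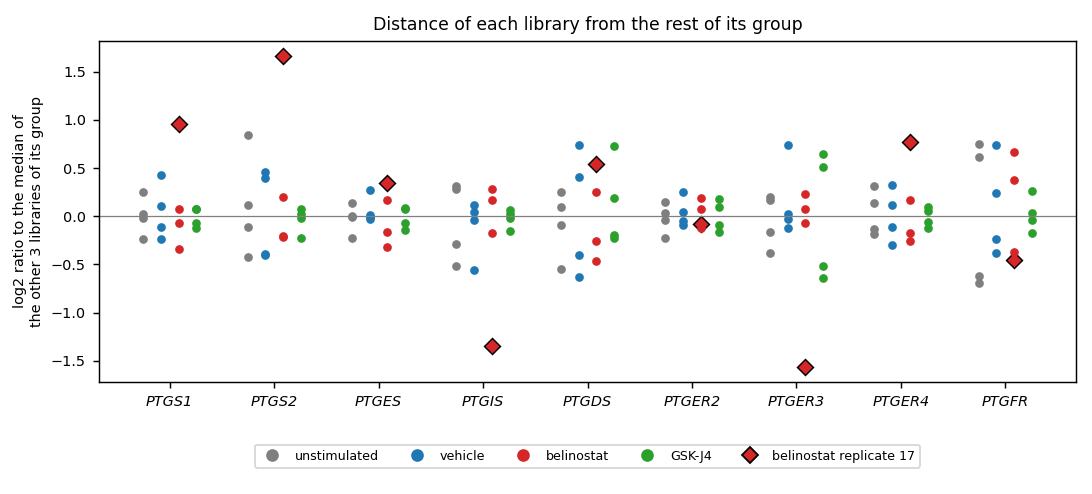
Log2 ratio of each library's normalized count to the median of the other 3 libraries of its group, for 9 prostaglandin genes (horizontal axis), with 1 point per library coloured by group and belinostat replicate 17 as a diamond. The diamond lies highest of all points for PTGS2 (3.16 times the median) and lowest for PTGER3 (0.339 times), and close to 0 for PTGER2.

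HPGD was too low to be tested. Between vehicle and unstimulated cells 1 of 8 prostaglandin genes was called, PTGFR, which was higher, where 1.74% of all 16240 genes tested were called. The libraries of the groups did not overlap for PTGS2, PTGFR and PTGER3, as for 6.93% of all genes. Here and below, PTGER3 against unstimulated cells and PTGER4 against GSK-J4 are named among such genes as description only. Their falls were known beforehand, so the share of all genes is no measure for them. Between belinostat and vehicle 2 of 9 were called, PTGES higher and PTGDS lower (6.26% of 14209 genes), and the groups did not overlap for the same 2 genes (11.4%). Between GSK-J4 and vehicle 2 of 8 were called, PTGIS and PTGDS, both higher (1.92% of 13197 genes), and these, PTGS2 and PTGER4 did not overlap (10.0%). Between the compounds 4 of 8 were called (12.2% of 14717 genes): PTGES was higher, and PTGS2, PTGIS and PTGDS lower, under belinostat, and the same 4 and PTGER4 did not overlap (17.0%). Against unstimulated cells 3 of 8 were called under belinostat (10.3% of 14209 genes), PTGES and PTGFR higher and PTGDS lower. These and PTGER3 did not overlap (12.3%). Under GSK-J4 3 of 7 were called against the same cells (5.55% of 16747 genes), PTGS2, PTGDS and PTGFR, all higher. These, PTGIS, PTGER3 and PTGER4 did not overlap (11.9%). The median log2 fold change of the 9 genes was 0.17 for vehicle over unstimulated, 0.03 for belinostat over vehicle and 0.13 for GSK-J4 over vehicle, and that of all genes tested lay within 0.01 of 0 in each.

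**Figure D2:**
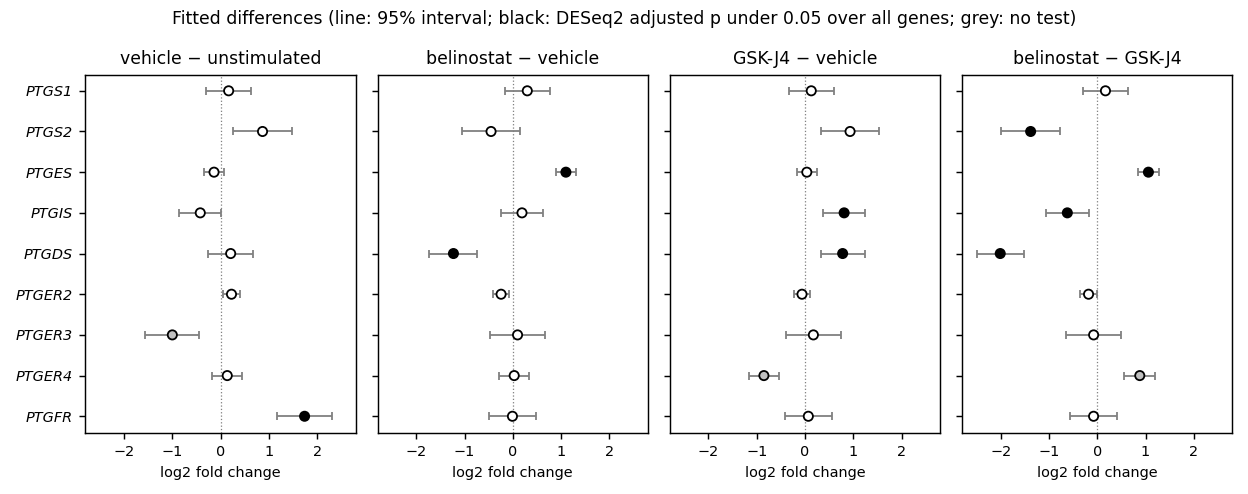
Log2 fold change (horizontal axis) of 9 prostaglandin genes (vertical axis) in 4 comparisons, with the 95% interval as a line; black points had an adjusted p under 0.05 and grey points are given without a test. PTGFR stands to the right only in the first panel (1.74), PTGES and PTGDS lie on opposite sides under belinostat (1.10 and -1.23), and PTGDS has its largest gap between the compounds (-2.01).

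PTGS1, the constitutive cyclooxygenase, was the most abundant of these genes. Per kilobase of its main transcript it averaged 668 ± 90.1 normalized counts in unstimulated cells (SD, n = 4), where PTGES, the next, averaged 360 ± 35.9. Its normalized counts were 3934, 3347, 2831 and 3294 in unstimulated libraries and 3175, 3739, 3470 and 4663 in vehicle. Under GSK-J4 they were 4264, 4042, 4248 and 3904, and under belinostat 7464, 4030, 3193 and 3830. The groups overlapped in each comparison with vehicle, and the one high value was belinostat replicate 17. PTGS1 was not called. The log2 fold change was 0.17 (95% interval -0.30 to 0.64) for vehicle over unstimulated, 0.13 (-0.34 to 0.60) for GSK-J4 over vehicle and 0.30 (-0.17 to 0.77) for belinostat over vehicle, which became -0.03 without replicate 17.

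PTGS2, the inducible cyclooxygenase, was far lower than PTGS1. It had 119.7, 72.08, 66.58 and 53.7 normalized counts in unstimulated libraries, and 159.9, 121.7, 121.1 and 166.9 in vehicle. Under GSK-J4 it had 291.9, 276.5, 280.4 and 239, and under belinostat 208.1, 75.71, 65.81 and 65.41. All GSK-J4 libraries lay above all others, all vehicle libraries lay above all unstimulated ones, and 3 of 4 belinostat libraries lay within the unstimulated range. The group means were 78.01 ± 28.8 in unstimulated cells, 142.4 ± 24.4 in vehicle and 271.9 ± 22.9 under GSK-J4 (SD, n = 4).

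On the log2 scale PTGS2 differed by 0.87 between vehicle and unstimulated cells (SE 0.31, DESeq2 adjusted p = 0.173), and GSK-J4 over vehicle was 0.93 (SE 0.31, DESeq2 adjusted p = 0.0877), so neither was called. With only the groups compared in the fit both were called, at 0.87 (DESeq2 adjusted p = 0.0155) and 0.93 (DESeq2 adjusted p = 2.24e-09), and the first was also called without unstimulated replicate 1 (1.15, DESeq2 adjusted p = 0.0228). Belinostat minus vehicle was -0.45 (SE 0.31, DESeq2 adjusted p = 0.55). Without belinostat replicate 17 it was -1.05 (SE 0.22) and called (DESeq2 adjusted p = 6.19e-05). The fit gives each gene 1 dispersion over all 16 libraries. Without belinostat replicate 17 and vehicle replicate 16, an alternative chosen after the data were seen, the same differences were 0.78, 1.02 and -0.96, with DESeq2 adjusted p of 0.0132, 5.91e-05 and 0.00118. Most alternatives gave these differences no call, edgeR and limma-voom among them. They stayed uncalled in 11 of 14 for vehicle over unstimulated, 12 of 14 for GSK-J4 over vehicle and 12 of 14 for belinostat minus vehicle. Between the compounds PTGS2 was lower under belinostat in every alternative run (-1.38, SE 0.31, DESeq2 adjusted p = 0.000169, range -1.98 to -1.22). It was 3.49-fold higher under GSK-J4 than in unstimulated cells (DESeq2 adjusted p = 9.06e-07).

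As a share of the counts of both cyclooxygenases per transcript length, PTGS2 made up 3.28, 2.34, 2.55 and 1.78% in unstimulated libraries and 5.31, 3.5, 3.74 and 3.83% in vehicle. The share was 7.08, 7.07, 6.84 and 6.38% under GSK-J4 and 3.01, 2.05, 2.24 and 1.87% under belinostat. Belinostat replicate 17 had high counts of both genes, and its share lay within the range of the unstimulated libraries. The share is a description and was not tested. An antisense RNA, PACERR, overlaps the start of PTGS2 on the opposite strand, and no library held more than 2.855 normalized counts of it.

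The promoters of the genes that differed are printed here to show what they do and do not have in common. They are the 250 bases before the RefSeq start on the gene's strand (GRCh38.p14), and 8 of the 10 genes matched the promoter table. PTGIS and PTGER3 had no entry, so their promoters are not printed or compared. Capitals mark matches to a TATA box (TATAAA, gene strand only), the core of a cAMP response element (TGACG) and an AP-1 motif (TGANTCA). They also mark a C/EBP motif (TTNNGNAA), a GC box (GGGCGG), an E-box (CACGTG) and the kappaB motif (GGGRNWYYCC). All but the TATA box were sought on both strands. R stands for A or G, W for A or T, Y for C or T and N for any base. Among 35116 promoters of the same length, 6.80% held the TATA box, 21.2% the cAMP core, 6.57% AP-1, 33.2% C/EBP, 42.6% the GC box, 6.34% the E-box and 5.21% kappaB. A match is a description of letters and not a binding site. The gene models of PTGS2, PTGDS and PTGFR begin before the printed windows, and the counts do not say which start was used. The PTGS2 promoter (chr1:186680424-186680673, minus strand, 50.4% GC) held a TATA box starting 32 bases before the start, a cAMP core at 58 bases and a C/EBP match at 133 bases.
PTGS2 promoter: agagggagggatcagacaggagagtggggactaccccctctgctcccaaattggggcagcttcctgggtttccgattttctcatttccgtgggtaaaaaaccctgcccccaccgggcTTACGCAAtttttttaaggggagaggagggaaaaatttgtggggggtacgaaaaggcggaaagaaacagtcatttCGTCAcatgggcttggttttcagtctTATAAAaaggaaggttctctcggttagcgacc

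PTGES, the synthase that forms prostaglandin E2 together with PTGS2, was highest under belinostat. It had 700.6, 638.7, 547.7 and 635.6 normalized counts in unstimulated libraries, 546.3, 540.4, 550.5 and 657.4 in vehicle, and 609.2, 549.8, 615.7 and 579.6 under GSK-J4. Under belinostat it had 1452, 1143, 1024 and 1281. Every belinostat library lay above every other library, and the other 3 groups overlapped. The mean went from 573.7 ± 56 in vehicle to 1225 ± 184 under belinostat (SD, n = 4), or 2.14-fold. On the log2 scale the difference was 1.10, with an SE of 0.11 (DESeq2 adjusted p = 3.95e-22). All 14 alternatives kept the call, from 1.00 to 1.17, and the value without replicate 17 was 1.00. Vehicle minus unstimulated was -0.14 (95% interval -0.35 to 0.07), and GSK-J4 minus vehicle was 0.04 (-0.17 to 0.25).

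The PTGES gene lies on chromosome 9 (129738331 to 129753042, minus strand, GRCh38). Its promoter (chr9:129753043-129753292, minus strand, 61.2% GC) held 2 GC boxes, at 89 and 78 bases before the start, and none of the other motifs.
PTGES promoter: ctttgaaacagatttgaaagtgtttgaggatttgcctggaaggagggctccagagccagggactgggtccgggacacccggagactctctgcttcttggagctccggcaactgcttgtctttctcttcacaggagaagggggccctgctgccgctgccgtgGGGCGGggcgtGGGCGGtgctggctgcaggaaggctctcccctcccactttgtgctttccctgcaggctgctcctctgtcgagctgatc

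PTGDS, prostaglandin D2 synthase, lay below vehicle under belinostat and above it under GSK-J4. It had 97.47, 87.09, 81.67 and 59.56 normalized counts in unstimulated libraries and 102.8, 77.62, 66.13 and 130 in vehicle. Under belinostat it had 51.55, 30.53, 42.07 and 35.3, and under GSK-J4 154.6, 224.2, 132.1 and 135.2. All belinostat libraries lay below, and all GSK-J4 libraries above, every library of the remaining groups. The mean was 94.14 ± 28.4 in vehicle and 39.86 ± 9.12 under belinostat (SD, n = 4). This fall of 1.23 on the log2 scale, with an SE of 0.26 (DESeq2 adjusted p = 8.75e-05), kept its call in all 14 alternatives and was -1.38 without replicate 17. Under GSK-J4 the mean was 161.5 ± 43 (log2 difference 0.78, SE 0.23, DESeq2 adjusted p = 0.0464), and that call was lost in 9 of 14 alternatives, with adjusted p from 0.00226 to 0.382. The difference between the compounds, -2.01 (SE 0.25, DESeq2 adjusted p = 1.9e-13), kept its call in all 14. Vehicle and unstimulated cells overlapped (0.21, 95% interval -0.26 to 0.68).

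Another annotated gene, ENSG00000284341, shares exon sequence with PTGDS on the same strand, so part of its reads could have been assigned either way. The promoter of PTGDS (chr9:136977254-136977503, plus strand, 68.4% GC) held 1 C/EBP match at 145 bases before the start, the only motif it shared with PTGS2.
PTGDS promoter: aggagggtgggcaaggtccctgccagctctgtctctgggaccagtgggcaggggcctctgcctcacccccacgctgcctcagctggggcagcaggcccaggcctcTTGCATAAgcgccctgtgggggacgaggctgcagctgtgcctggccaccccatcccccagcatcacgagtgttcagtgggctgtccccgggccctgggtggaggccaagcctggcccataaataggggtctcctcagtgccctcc

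PTGIS, prostacyclin synthase, was highest under GSK-J4. It had 194, 278.3, 228.1 and 284.1 normalized counts in unstimulated libraries and 209.4, 198.4, 192.8 and 134.6 in vehicle. Under GSK-J4 it had 324.4, 329.7, 295.6 and 338.6, and under belinostat 98.33, 269.9, 250.3 and 222.2. The GSK-J4 libraries lay above all others, and belinostat replicate 17 lay below all others. GSK-J4 over vehicle was 1.75-fold (log2 0.81, SE 0.22, DESeq2 adjusted p = 0.0219). The direction was the same in all 14 alternatives, from 0.69 to 0.88, but 9 of them lost the call, among them edgeR, limma-voom and each fit without 1 GSK-J4 library, with adjusted p up to 0.143. The belinostat value was 0.19 above vehicle (95% interval -0.25 to 0.63) and 0.43 without replicate 17, and neither was called. Belinostat lay 0.62 below GSK-J4 (SE 0.22, DESeq2 adjusted p = 0.047), which was 0.38 without replicate 17 and then not called. This call was lost in 8 of 14 alternatives, among them edgeR and each fit without 1 GSK-J4 library.

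**Figure D3:**
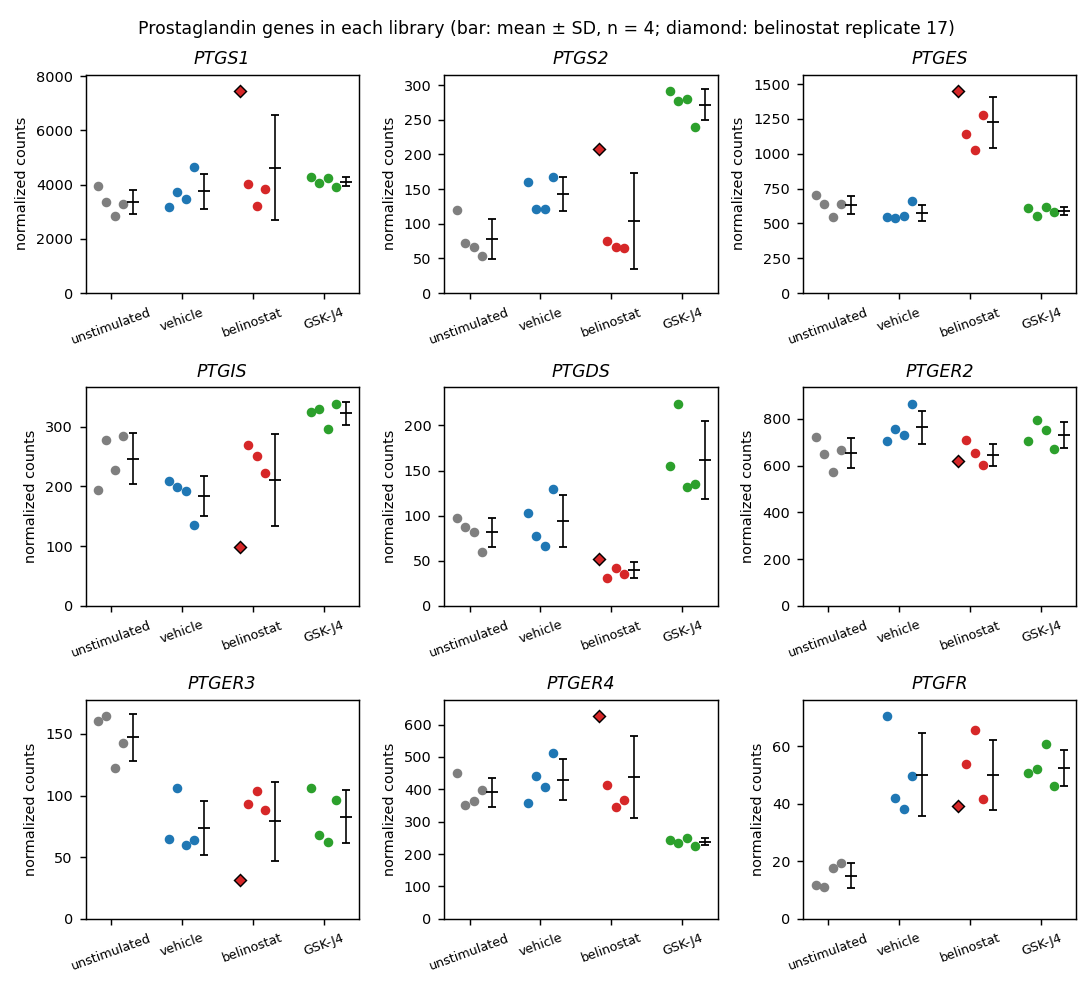
Normalized counts (vertical axes, each from 0) of 9 prostaglandin genes in every library of the 4 groups (horizontal axes), with the mean ± SD of 4 libraries as a bar and belinostat replicate 17 as a diamond. PTGES separates under belinostat (1024 to 1452), PTGS2, PTGIS and PTGDS are highest and PTGER4 lowest under GSK-J4, and PTGFR is below 20 normalized counts only in unstimulated cells.

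Of the prostaglandin E2 receptors, PTGER2 and PTGER4 raise cAMP and PTGER3 lowers it. PTGER2 was the most abundant of them per transcript length in every group, and it was the steadiest. It had 723.8, 651.7, 572.6 and 668.8 normalized counts in unstimulated libraries and 707.2, 755.1, 730.3 and 865.8 in vehicle. It had 621.5, 709.4, 655.9 and 601.2 under belinostat and 705.9, 797.6, 751.8 and 672.9 under GSK-J4. It was called in no comparison of the whole set of libraries. The nearest was belinostat below vehicle (-0.24, SE 0.09, DESeq2 adjusted p = 0.0803), where the groups overlapped in a narrow band (-0.22 without replicate 17), and the call appeared in 1 alternative, without belinostat replicate 18 (-0.29, adjusted p = 0.0437).

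PTGER4 was lowest under GSK-J4. It had 449.7, 351.4, 363.1 and 399.3 normalized counts in unstimulated libraries, 358.8, 441.7, 408 and 511.8 in vehicle, and 625.3, 413.9, 346.3 and 367.6 under belinostat. Under GSK-J4 it had 244.1, 234.5, 249.9 and 224.3. Every GSK-J4 library lay below every other library, and the other 3 groups overlapped. The mean was 430.1 ± 64.2 in vehicle and 238.2 ± 11.2 under GSK-J4 (SD, n = 4), which is -0.85 on the log2 scale with an SE of 0.16. Belinostat minus vehicle was 0.03 (95% interval -0.28 to 0.34), and -0.20 without replicate 17. The fibroblast marker sum was also higher under GSK-J4, at 525500 to 560600 against 476300 to 520300 in unstimulated and vehicle libraries. The mast cell list of 3 genes summed to 2926 to 3162 under GSK-J4 and to 3181 to 3930 in the other 12 libraries. KIT made up nearly all of it, so the sum is in effect the level of KIT. Their part in the GSK-J4 results was not tested.

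The PTGER4 promoter (chr5:40679665-40679914, plus strand, 72.8% GC) held 4 GC boxes, at 179, 155, 138 and 93 bases before the start, and a kappaB match at 244 bases. No other printed promoter held an exact match to the kappaB pattern. Near matches, such as gggactaccc in the PTGS2 promoter, were not marked.
PTGER4 promoter: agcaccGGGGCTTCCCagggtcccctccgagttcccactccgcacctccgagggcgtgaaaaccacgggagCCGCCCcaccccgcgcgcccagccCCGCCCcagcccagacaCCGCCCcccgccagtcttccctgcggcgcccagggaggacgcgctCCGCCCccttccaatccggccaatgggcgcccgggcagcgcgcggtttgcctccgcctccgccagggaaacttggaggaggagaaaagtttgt

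PTGER3 was lower in all 3 cytokine-pulsed groups than in unstimulated cells. It had 160.2, 164.2, 122.5 and 142.5 normalized counts in unstimulated libraries and 64.72, 106.4, 59.61 and 63.62 in vehicle. Under belinostat it had 31.51, 92.8, 103.6 and 88.25, and under GSK-J4 105.8, 67.58, 61.97 and 96.43. All 12 pulsed libraries lay below all unstimulated ones. The log2 fold change against unstimulated cells was -1.0 (SE 0.28) in vehicle, -0.90 (SE 0.28) under belinostat and -0.83 (SE 0.28) under GSK-J4, and these share the unstimulated libraries. Against vehicle the values were 0.10 (95% interval -0.47 to 0.67) for belinostat, or 0.37 without replicate 17, and 0.17 (-0.39 to 0.74) for GSK-J4. Neither compound differed detectably from vehicle at this spread.

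PTGFR, the receptor for prostaglandin F2alpha, went the other way. Per transcript length it was the lowest of the 9 genes in every group. It had 11.58, 11.01, 17.75 and 19.53 normalized counts in unstimulated libraries and 70.43, 42.16, 38.19 and 49.79 in vehicle. Under belinostat it had 39.14, 53.73, 65.81 and 41.53, and under GSK-J4 50.85, 52.22, 60.96 and 46.12. All pulsed libraries lay above all unstimulated ones, and the 3 pulsed groups overlapped. The mean rose from 14.97 ± 4.31 to 50.14 ± 14.4 in vehicle (SD, n = 4), or 3.34-fold. On the log2 scale this was 1.74, with an SE of 0.29 (DESeq2 adjusted p = 9.28e-07), and all 14 alternatives kept the call, from 1.53 to 1.89. Belinostat minus vehicle was -0.01 (95% interval -0.49 to 0.48), or 0.10 without replicate 17, and GSK-J4 minus vehicle was 0.07 (-0.41 to 0.55).

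The PTGFR promoter (chr1:78490724-78490973, plus strand, 54.0% GC) held 1 GC box at 37 bases before the start. The gene model reaches from 78303884 to 78540701 on chromosome 1 and so holds transcripts that start well before this window, and the counts do not say which start was used.
PTGFR promoter: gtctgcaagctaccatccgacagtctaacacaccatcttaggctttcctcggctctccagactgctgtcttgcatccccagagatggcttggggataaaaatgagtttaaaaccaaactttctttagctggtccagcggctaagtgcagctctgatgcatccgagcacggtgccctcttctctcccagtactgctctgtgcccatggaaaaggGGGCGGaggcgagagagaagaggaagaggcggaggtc

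HPGD, the enzyme that inactivates prostaglandins, had 0 to 3 counts in every library and 0 in all 4 belinostat libraries, where a count of 0 allows up to 3 counts per library. The gene was not testable, and no difference was detectable at this depth.

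Other genes of the pathway were counted in 7 lists of 102 entries in all. Their counts stand beside the shares of all genes called, 1.74% for vehicle against unstimulated, 6.26% for belinostat and 1.92% for GSK-J4 against vehicle, and 12.2% between the compounds. In the list for the supply of arachidonic acid (13 genes, 10 tested), 2 rose and 1 fell under belinostat against vehicle (6.26% of all genes were called), and none was called under GSK-J4 (0 at an unadjusted p under 0.05 and 0 by edgeR). PLA2G4C, a phospholipase A2, rose by 0.56 (SE 0.16) and PLAAT3, another phospholipase, by 0.36 (SE 0.11). The first lost its call in 3 of 14 alternatives and the second in 6, both among them without belinostat replicate 17 (0.40 and 0.33). MGLL, the lipase that frees glycerol and a fatty acid from monoacylglycerols, fell by 0.41 (SE 0.05, DESeq2 adjusted p = 9.6e-15), from 4289 ± 132 to 3231 ± 78.1 normalized counts (SD, n = 4). MGLL was called 0.16 higher in vehicle than in unstimulated cells, a call lost in 11 of 14 alternatives. Between the compounds PLA2G4C and PLAAT3 were higher under belinostat, and MGLL and PLA2G4A, the cytosolic phospholipase A2, were lower (-0.61 for PLA2G4A, called in 6 of 14 alternatives).

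None of the other 7 prostanoid synthases tested was called in any of the 6 comparisons by DESeq2, edgeR or limma-voom, and at an unadjusted p under 0.05 there were 0 to 3 per comparison. Without belinostat replicate 17, 2 were called below vehicle under belinostat, AKR1B1, which also forms prostaglandin F2alpha (-0.94, SE 0.18, DESeq2 adjusted p = 6.93e-06, and -0.57 with the library), and the thromboxane synthase TBXAS1 (-0.53, and -0.29 with it). Both were named after their values were seen. AKR1B1 was then also called against GSK-J4 (-0.90). Of 6 other prostanoid receptors tested, PTGDR2, a prostaglandin D2 receptor below the level set for naming and so named after its values were seen, fell under belinostat. It had 34.26, 31.62, 24.22 and 29.51 normalized counts in vehicle, 7.638, 20.76, 7.552 and 21.8 under belinostat and 36.61, 59.39, 51.81 and 52.41 under GSK-J4. Its belinostat libraries lay below all vehicle and GSK-J4 libraries (-1.07 against vehicle, SE 0.32, DESeq2 adjusted p = 0.0175). That call was lost in 6 of 14 alternatives, among them without belinostat replicate 17 (-0.84). The GSK-J4 difference from vehicle was not called (0.74, SE 0.27, DESeq2 adjusted p = 0.171). PPARD, a nuclear receptor for lipids, was 0.19 higher under belinostat than under GSK-J4. Of 11 transport and breakdown genes, ABCC1, an export pump, was 0.19 higher under belinostat than in vehicle (SE 0.05), and 0.18 without replicate 17. Without that library 4 of the list were called in place of 1, the added ones being AKR1C1 (-0.71), AKR1C2 (-0.45) and SLCO4A1 (-0.95), all named after their values were seen, and 5 in place of 3 between the compounds. AKR1C1 and AKR1C2 are close paralogs whose reads could be split between them, so their values are uncertain. PTGR1, a reductase in prostaglandin and leukotriene breakdown, was 0.47 higher under GSK-J4 (SE 0.08, DESeq2 adjusted p = 1.69e-06). PTGR1 averaged 1218 ± 83.1 normalized counts in vehicle and 1688 ± 154 under GSK-J4 (SD, n = 4). In the leukotriene and lipoxygenase list LTA4H, leukotriene A4 hydrolase, was 0.21 higher under belinostat, a call lost in 6 of 14 alternatives, replicate 17 left out among them (0.15).

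Of 27 genes of cAMP signalling, the pathway downstream of PTGER2 and PTGER4, 1 was called between vehicle and unstimulated cells (1.74% of all genes). This was PDE4B, a phosphodiesterase that degrades cAMP, which rose from 1028 ± 92.8 to 1505 ± 216 normalized counts (SD, n = 4; log2 0.55, SE 0.11, DESeq2 adjusted p = 0.000192). Under belinostat SIK1, a cAMP-induced kinase, rose by 0.70 (SE 0.17), while NR4A1, an immediate early nuclear receptor, fell by 0.65 (SE 0.16). PDE7B, another phosphodiesterase, fell by 0.38 (SE 0.07) and the adenylyl cyclase ADCY3 fell by 0.30 (SE 0.05). All 4 kept their calls without replicate 17, and 6.26% of all genes were called in this comparison of the whole set of libraries. Under GSK-J4 none of 24 tested was called (2 at an unadjusted p under 0.05, 0 by edgeR). Between the compounds, where 12.2% of all genes were called, SIK1 was higher under belinostat and 6 genes were lower. Among the 6 were ADCY7 (-0.47), ADCY6 (-0.13) and NR4A1 (-0.68).

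Of 19 regulators of PTGS2 transcription and mRNA decay, CELF2, an RNA-binding protein that binds PTGS2 mRNA, moved most. It averaged 120.8 ± 13.3 normalized counts in unstimulated cells, 184.6 ± 21.6 in vehicle, 86.64 ± 14.1 under belinostat and 237.9 ± 26 under GSK-J4 (SD, n = 4). It rose by 0.61 in vehicle (SE 0.14, DESeq2 adjusted p = 0.00127) and was 1.10 lower under belinostat than in vehicle (SE 0.15, DESeq2 adjusted p = 1.37e-11). Under belinostat DUSP1, a phosphatase of MAP kinases, rose by 0.45 (SE 0.10) and ANXA1, which restrains phospholipase A2, rose by 0.31 (SE 0.09). ZFP36, which speeds the decay of AU-rich mRNAs, fell by 0.31 (SE 0.08). The smaller falls of CEBPD (-0.23) and NFKB1 (-0.17) lost their calls in 9 and 10 of 14 alternatives, replicate 17 left out among them, and the rise of ANXA1 in 5. CELF2 was -0.99 without replicate 17. Under GSK-J4 none of the 19 was called against vehicle (1 at an unadjusted p under 0.05, 0 by edgeR). Between the compounds CELF2 and ZFP36 were lower and DUSP1 and ANXA1 higher under belinostat in all 14 alternatives. ZFP36L2 (-0.17), EGR1 (-0.47) and MAPKAPK2 (-0.14) were also called lower, but lost the call in 11, 8 and 10 of 14 alternatives, edgeR and limma-voom among them.

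**Figure D4:**
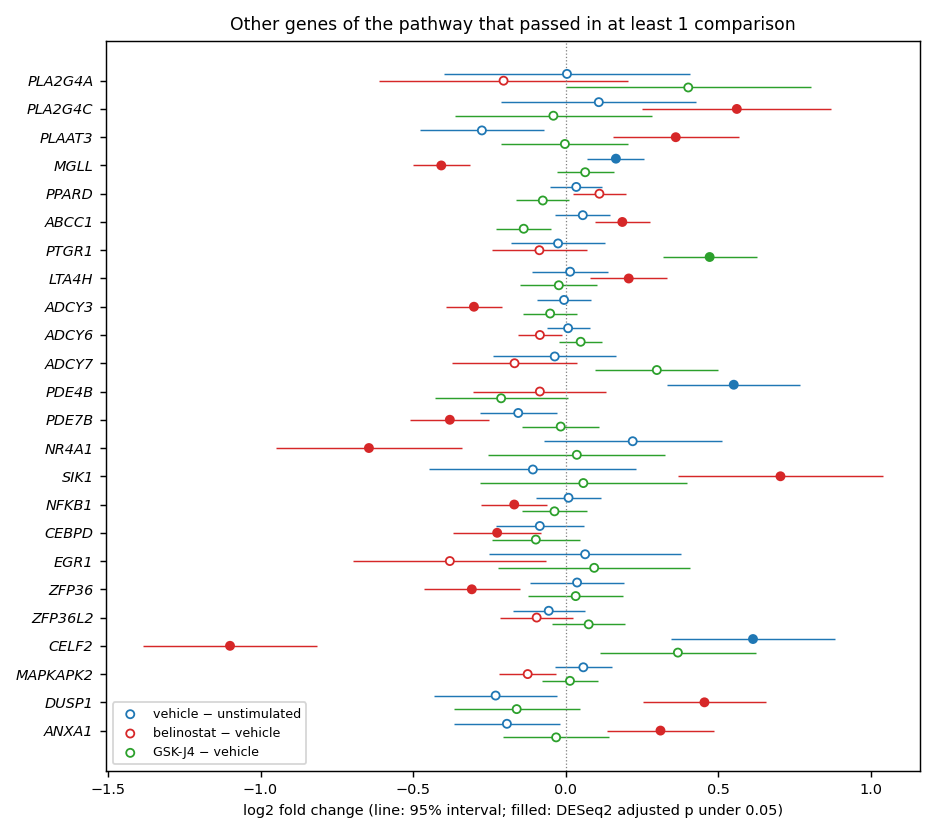
Log2 fold change (horizontal axis, line: 95% interval) of the 24 other pathway genes named by the rule (vertical axis), for vehicle minus unstimulated (blue), belinostat minus vehicle (red) and GSK-J4 minus vehicle (green), with filled points at an adjusted p under 0.05. The filled red points of CELF2 (-1.10) and SIK1 (0.70) lie farthest from 0, and the single filled green point is PTGR1 (0.47).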

How the data were processed

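Bulk RNA-seq libraries were made with the NEBNext Ultra II RNA kit and sequenced on a NextSeq500. The submitters' processing notes name FastQC 0.11.9, kallisto 0.48.0, MultiQC 1.14 and hg38. The authors deposited kallisto's estimated counts (default settings), 1 row per gene symbol and not scaled to depth. The transcriptome release and the summing of transcripts to symbols are not given in the sources used here. Groups came from the labels. Columns of unstimulated libraries say none where titles say DMSO.

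Estimated counts were rounded and tested with DESeq2 1.42.0 (R 4.3.3), the tool the study's methods name: 1 Wald fit of 16 libraries with group alone in the design, default size factors, no shrinkage, Benjamini-Hochberg adjustment over all genes, 6 comparisons. edgeR 4.0.16 and limma 3.58.1 (voom), TMM factors, a filter of at least 10 counts in 4 libraries, only the groups compared, and fits without single libraries were alternatives, 14 for each comparison. The scripts were tested on simulated data. The members and lists were chosen with earlier results of these data known. The text names all 10 members, and list genes called in 1 of the first 4 comparisons with a mean of at least 50 normalized counts. Levels per length use MANE Select transcripts of GENCODE. PTGS1, PTGES and PTGIS had decimals in 16 of 16 libraries, so reads shared with other transcripts entered their values.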

Additional observations from a re-analysis of the deposited data

Results flagged for a closer look

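In 36 sets of 4 libraries (9 genes in 4 groups), 3 single libraries lay far from the other 3 by Dixon's criterion for 4 values, where chance gives about 1 in 20. Belinostat replicate 17 had 208.1 normalized counts of PTGS2 (gap over range 0.928), vehicle replicate 16 had 657.4 of PTGES (0.914), and vehicle replicate 14 had 106.4 of PTGER3 (0.891).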

How the results depend on the processing

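No paired analysis was possible because the groups share no replicate numbers. Of 756 alternative values of the 54 results for single genes, 668 kept direction and side of the threshold, 37 lost the call, 16 gained one and 35 changed sign. The cause was not tested for any change given here.

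The counts of prostaglandin genes here include PTGER3 and PTGER4, which the report describes without a test. The number called between vehicle and unstimulated went from 2 to 1 under edgeR and limma-voom and was 1 to 2 with single libraries left out. That between GSK-J4 and vehicle went from 3 to 1 under both and was 1 to 2. Under both tests the call lost in the first comparison was PTGER3, and the call left in the second was PTGER4. These counts are therefore a description of the processing only. The number called between GSK-J4 and unstimulated went from 4 to 7 with only the groups compared. It also went to 7 without vehicle replicate 16 and belinostat replicate 17. In the same 2 fits the calls over all genes went from 930 to 993 and to 1352. Over all genes, calls between vehicle and unstimulated went from 282 to 166 under edgeR and 168 under limma-voom (180 to 295 with single libraries left out, 354 without vehicle replicate 16 and belinostat replicate 17). Those between GSK-J4 and vehicle went from 253 to 91 and 105, to 542 with only the groups compared and to 380 without replicates 16 and 17 (132 to 193 with libraries left out). Those between belinostat and unstimulated went from 1461 to 876 with only the groups compared.

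Signs changed only in differences that were not called. Under limma-voom PTGER3, belinostat minus vehicle, was -0.025. Without replicates 16 and 17, belinostat minus vehicle was -0.10 for PTGER4 and 0.09 for PTGFR. GSK-J4 minus vehicle was 0.00204 for PTGER2. Belinostat minus GSK-J4 was -0.16 for PTGS1, 0.20 for PTGER3 and 0.03 for PTGFR. Belinostat minus unstimulated was -0.18 for PTGS2, 0.00675 for PTGIS, 0.00215 for PTGER2 and -0.058 for PTGER4. With single libraries left out, the ranges for belinostat minus vehicle were -0.030 to 0.44 for PTGS1, -0.063 to 0.37 for PTGER3, -0.20 to 0.13 for PTGER4 and -0.17 to 0.20 for PTGFR. For GSK-J4 minus vehicle they were -0.11 to 0.00256 for PTGER2 and -0.043 to 0.28 for PTGFR. For belinostat minus GSK-J4 they were -0.16 to 0.31 for PTGS1, -0.24 to 0.20 for PTGER3 and -0.24 to 0.03 for PTGFR. For belinostat minus unstimulated they were -0.18 to 0.70 for PTGS2, -0.37 to 0.00726 for PTGIS, -0.077 to 0.036 for PTGER2 and -0.057 to 0.27 for PTGER4.

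Low counts limit PTGFR in unstimulated cells and HPGD in all groups. The calls of PTGIS and PTGDS between GSK-J4 and vehicle depend on single libraries and on the test used. PTGDS was also higher under GSK-J4 than in unstimulated cells (0.99, SE 0.24, DESeq2 adjusted p = 0.00134). That call was kept in all 14 alternatives. The difference of PTGER3 between vehicle and unstimulated ran from -1.23 to -0.91 over the alternatives.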

Other observations

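As a description, with no test, the genes whose log2 levels followed a prostaglandin gene most closely over the 16 libraries were sought among 11733 genes with a mean of at least 50 normalized counts. The 16 libraries form 4 groups, so a shared difference between groups gives a high Pearson r. CXCL14, a chemokine, followed PTGES (r = 0.950), as did the growth factor gene PTN (0.949) and SAMD11 (0.942). SSTR1, a somatostatin receptor, followed PTGDS (0.970), as did CD55, a brake on complement (0.946), and ECM1 (0.938). ADAMTS7 (0.937), TNNT2 (0.927) and the extracellular superoxide dismutase SOD3 (0.921) followed PTGIS. FAM131B (0.895), CNTNAP3B (0.871) and ECHDC1 (0.866) followed PTGER3. KIT (0.864), the gene behind nearly all counts of the mast cell list, PCID2 (0.857) and IL15RA (0.851) followed PTGER4. PTGFR lay below the level set for this search, and PTGS1, PTGS2 and PTGER2 were not called in the first 3 comparisons and were not searched.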
